A study of Danio rerio with 6 samples.

Results

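The Hox genes are the clustered homeobox genes that give cells of the body axis their position. Members were taken from the deposited table as every row whose symbol starts with hoxa, hoxb, hoxc or hoxd followed by a number. This gave 50 of 31624 genes, with 48 symbols, since hoxa9a and hoxc10a each stand on 2 rows. They lie in 7 clusters, hoxaa, hoxab, hoxba, hoxbb, hoxca, hoxcb and hoxda, and carry paralog numbers from 1 to 13. Embryos of the zebrafish, Danio rerio, were sampled whole at the age of 72 hours post fertilization (hpf). There were 3 wild type and 3 rhpn2 mutant samples, lettered a, b and c within each group. The labels describe the mutation as a knockout of rhpn2, the gene for rhophilin-2, and give no allele, line or number of embryos per sample. They do not say that the samples of a group came from separate clutches, so the p-values measure only how these samples vary, and that variation may be technical.

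Each Hox gene encodes a transcription factor with a homeodomain, the part that binds DNA. Along a cluster, genes with low paralog numbers are used first and nearest the head, and genes with high numbers later and nearest the tail, a rule known as colinearity. In the zebrafish, low numbers pattern the hindbrain and pharyngeal arches, middle numbers the anterior trunk and spinal cord, and high numbers the posterior trunk, the tail and the fins. The doubling of the genome in the ancestor of teleost fishes left many genes with an a and a b copy.

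Total counts were 14918069 to 17056923 per sample, and the Hox members took 0.0533% to 0.0583% of them in wild type and 0.0782% to 0.0912% in mutants. The targeted gene rhpn2 had 10.75, 12.1 and 11.6 FPKM in the wild type samples and 2.73, 2.83 and 2.99 FPKM in the mutants, a log2 change of -2.12 (SE 0.10, adjusted p 5.04e-08). FPKM is the number of fragments scaled by gene length and by library total. The groups stood apart on the first principal component (67.5% of the variance), and wild type a stood apart on the second (12.3%). Log2 changes below are of mutant over wild type after TMM scaling, whereas FPKM is scaled by library totals. A ratio of FPKM values is therefore somewhat larger than the fold change given beside it: the median log2 change of all genes tested was 0.006 with TMM and 0.113 with library totals.

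Hox genes were higher in mutants where they differed. Of 49 members that passed the filter on low counts, 23 rose and 0 fell at an adjusted p below 0.05 in the quasi-likelihood test of edgeR, and 26 did not pass. Over all 20032 genes tested, 33.2% changed, made up of 16.5% that rose and 16.7% that fell. At an unadjusted p below 0.05, 25 members were higher and 0 lower. DESeq2 called 21 higher and limma 24 or 25 higher by pseudocount, with 0 lower in each. The median log2 change of the 49 members was 0.45, beside 0.006 for all genes tested, and 43 of the 49 had a positive change. In 27 members every mutant sample lay above every wild type sample after TMM scaling, and in 0 below. The same held for 24.2% of all genes in the upward and 23.7% in the downward direction. In these bulk samples, more cells that use a gene and more RNA per cell cannot be told apart.

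The changes were moderate in size. Among the 23 genes that rose, fold changes ran from 1.35 to 3.82 with a median of 1.59, and 3 genes, hoxa11a, hoxc4a and hoxc1a, more than doubled. Summed over all members, FPKM was 336, 310 and 336 in the wild type samples (a, b, c) and 471, 512 and 446.5 in the mutants, which all lay higher. Without wild type a, b or c, the count of 23 was 24, 16 and 19, and without mutant a, b or c, 22, 16 and 21. Over all genes tested, 3307 rose with every sample kept. Without wild type a, b or c, 3279, 2696 and 2760 of all genes rose. The numbers without mutant a, b or c were 2377, 2375 and 2465. Mutant b was the highest mutant sample for 35 of the 49 members, and wild type b was the lowest of all samples for 26. An exact two-sided permutation test of a single gene over these samples cannot give a p below 0.1, so the tests rest on the fit across all genes.

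**Figure D1:**
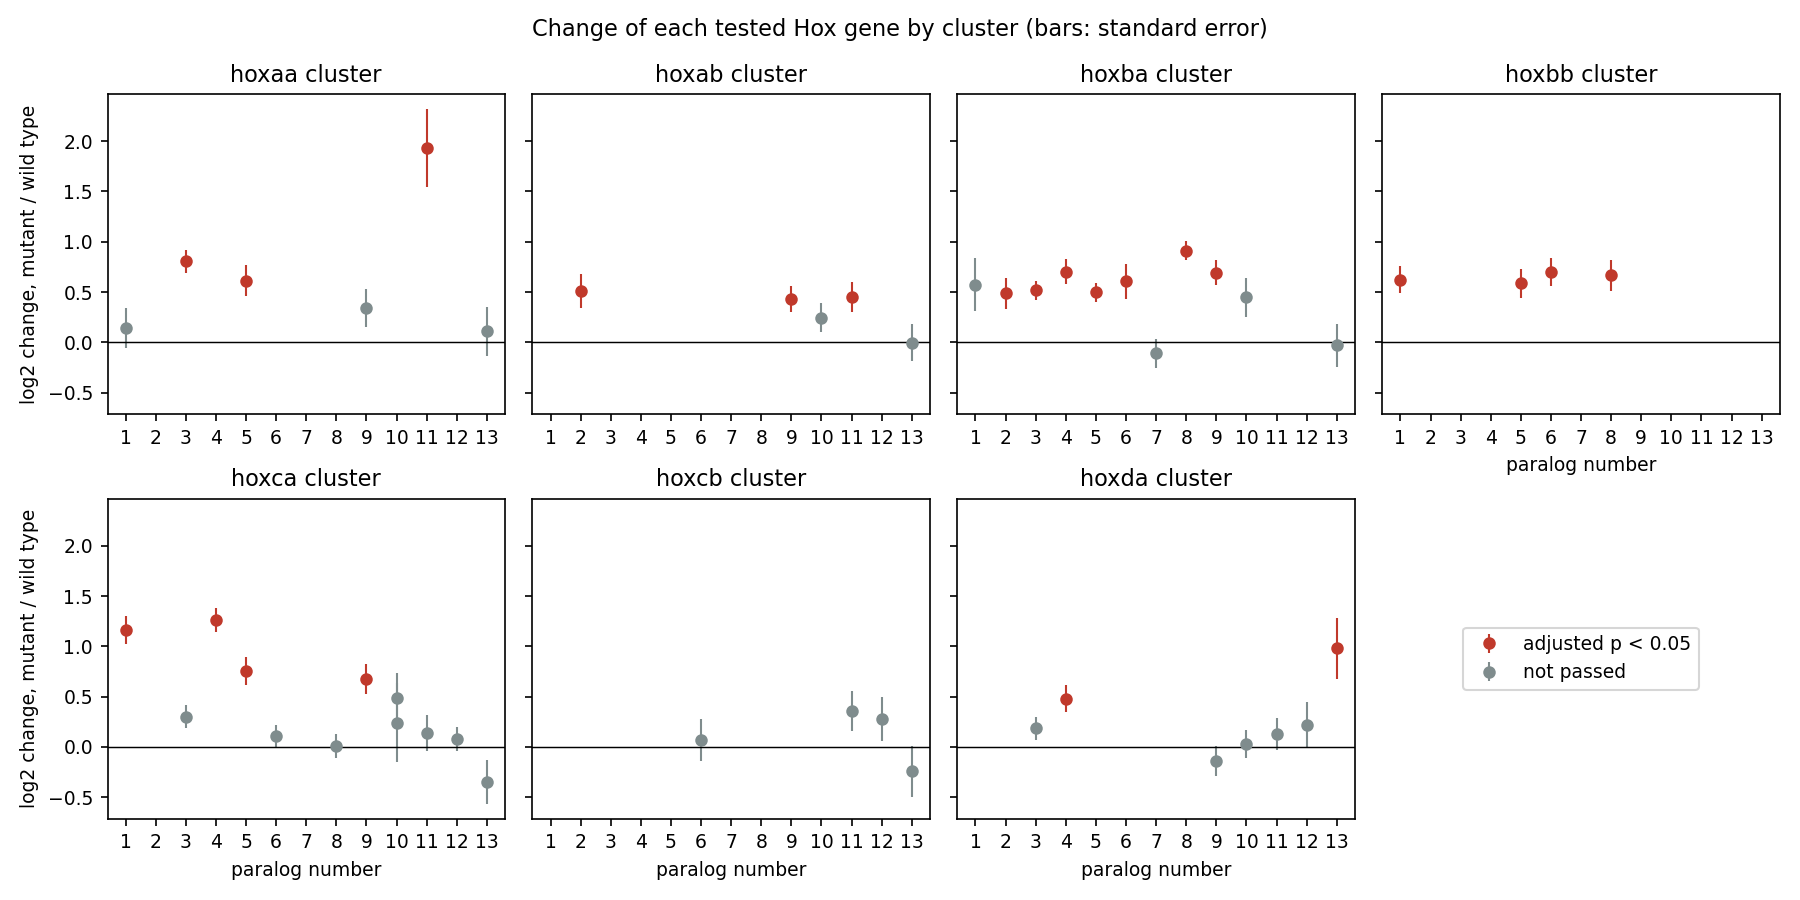
Log2 change of mutant over wild type (vertical axis) against paralog number (horizontal axis) for the 49 tested Hox genes, one panel per cluster, with bars for the standard error. The 23 genes that passed at an adjusted p below 0.05 are red and all lie above 0, while the 26 others are grey and lie between -0.35 and 0.57.

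Genes of paralog numbers 1 to 4, the anterior set, rose in 9 of 13 cases with a median log2 change of 0.52. The count of 9 was 6 without wild type b or without mutant b. The largest change was that of hoxc4a, a gene of the hoxca cluster (ENSDARG00000070338, chromosome 23, 36032080 to 36033760). Wild type samples a, b and c had 7.02, 6.47 and 7.11 FPKM, and mutants a, b and c had 18.7, 17.4 and 17.15 FPKM. The lowest mutant was thus more than double the highest wild type sample. Its log2 change was 1.26 (SE 0.12, adjusted p 1.42e-05 by edgeR).

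From the same cluster, hoxc1a rose from a low level (ENSDARG00000070337, chromosome 23, 36079301 to 36092185). Wild type samples had 0.90, 0.89 and 1.19 FPKM and mutants 2.41, 2.63 and 2.16 FPKM, with no overlap. The log2 change was 1.16 (SE 0.14, adjusted p 7.42e-05). Next in size came hoxa3a, which belongs to a paralog group that patterns the posterior hindbrain and pharyngeal arches. It had 6.33, 6.27 and 7.38 FPKM in wild type and 12.2, 14.5 and 10.9 FPKM in mutants, all mutants being higher. Its log2 change was 0.80 (SE 0.11, adjusted p 0.000219).

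Paralogs of number 4 rose in all 3 tested cases. Besides hoxc4a, hoxb4a went from 8.37, 7.53 and 7.65 FPKM to 14.7, 12.85 and 13.8 FPKM, a log2 change of 0.70 (SE 0.13, adjusted p 0.00112). The third, hoxd4a, which is used in the caudal hindbrain, had a log2 change of 0.48 (SE 0.14, adjusted p 0.0167). It did not pass without wild type b (adjusted p 0.0537) or without mutant b (0.0889).

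Other genes of numbers 1 to 3 are used in the hindbrain and arches. The gene hoxb1b, which acts early in hindbrain patterning, had 7.21, 6.64 and 6.77 FPKM in wild type and 10.5, 12.9 and 10.9 FPKM in mutants (log2 change 0.62, SE 0.13, adjusted p 0.00341). Its copy hoxb1a, the marker of the fourth hindbrain segment, had 20 to 28 counts in wild type and 34 to 49 in mutants. With a log2 change of 0.57 (SE 0.27) it did not pass in edgeR (adjusted p 0.117). Of the refits, it passed only with limma on log2(FPKM + 1) (0.0456). The gene hoxb3a had 11.1 to 11.9 FPKM in wild type and 15.5 to 18.8 FPKM in mutants (log2 change 0.52, SE 0.09, adjusted p 0.00126). The 2 genes of number 2, hoxa2b and hoxb2a, specify the second pharyngeal arch. They rose by 0.51 and 0.49 on the log2 scale (SE 0.17 and 0.15, adjusted p 0.0372 and 0.0264). The call of hoxa2b was lost with DESeq2 (adjusted p 0.0598) and without wild type b, wild type c, mutant a or mutant b (0.067 to 0.15). That of hoxb2a was lost without wild type b or any mutant (0.0535 to 0.105).

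The anterior genes that did not pass were hoxa1a, hoxb1a, hoxc3a and hoxd3a, with log2 changes of 0.14, 0.57, 0.30 and 0.19. For hoxc3a the adjusted p was 0.0645 by edgeR. It passed with library totals (0.0161), with limma (0.0278 and 0.0282), without wild type a (0.0186) and without mutant a (0.0421). In 9 other refits it did not pass.

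**Figure D2:**
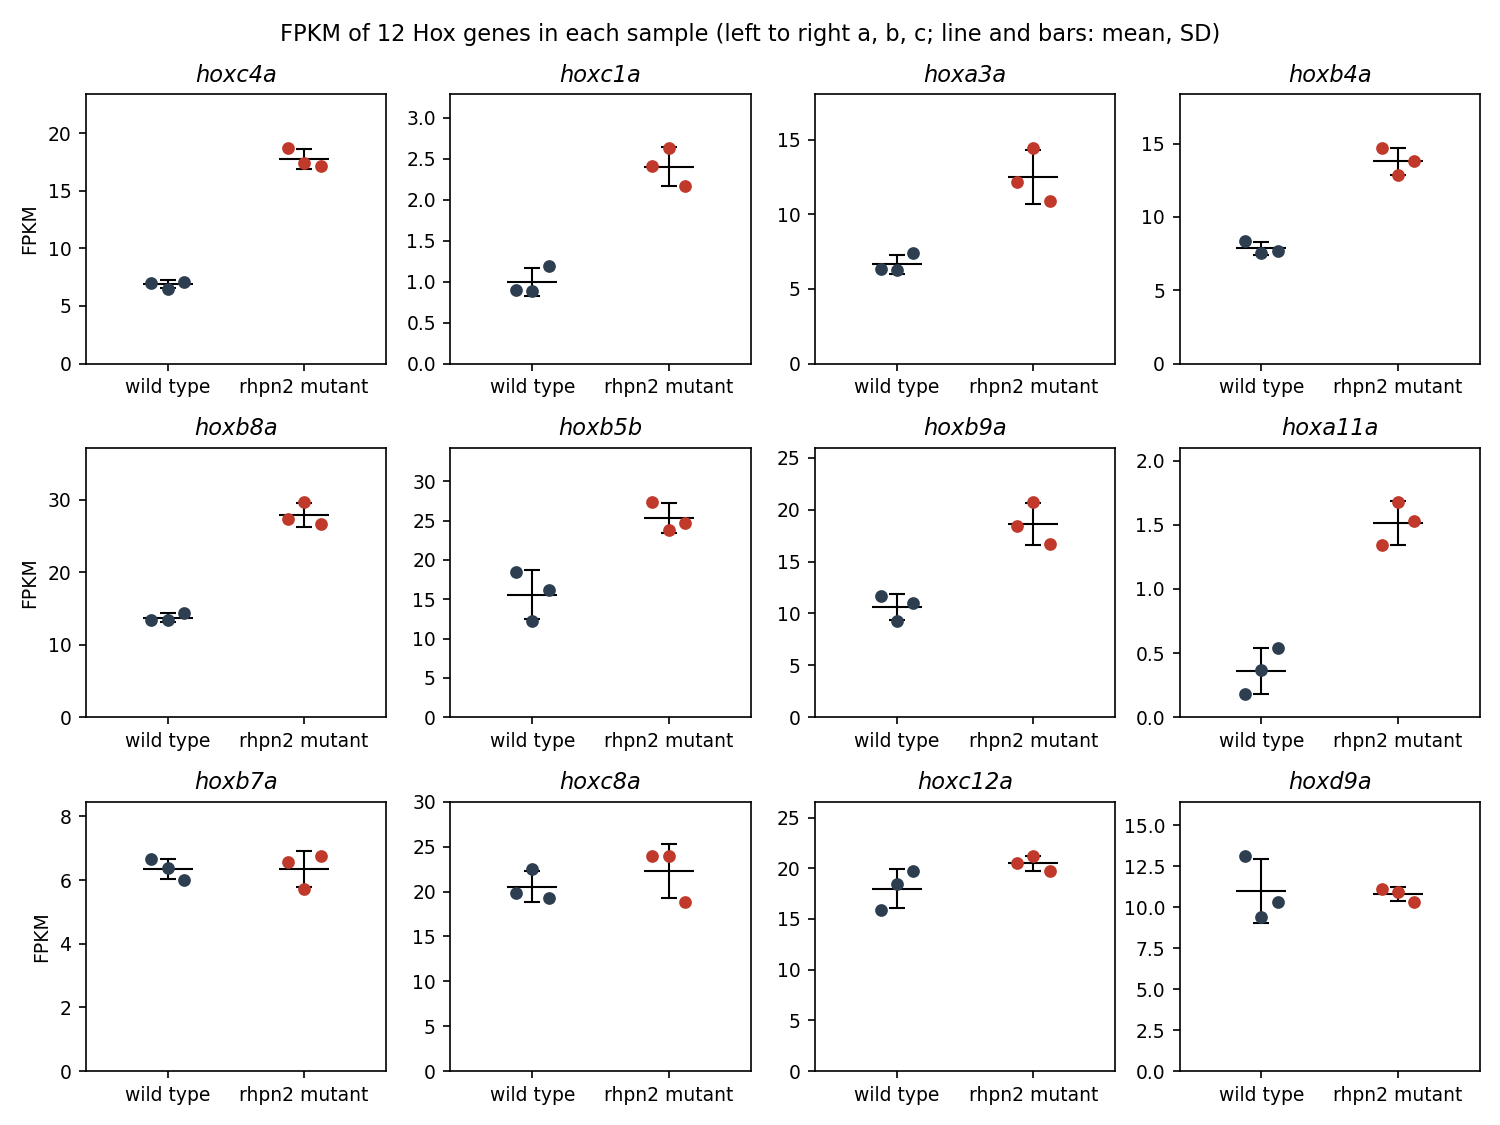
FPKM (vertical axis, from 0) of 12 Hox genes in each wild type (dark) and rhpn2 mutant (red) sample, with samples a, b and c from left to right and a line and bars for mean and SD (n = 3). The 8 genes of the upper rows are higher in each mutant than in any wild type sample, while in hoxb7a, hoxc8a, hoxc12a and hoxd9a of the bottom row the groups meet or overlap.

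Central genes, of numbers 5 to 8, rose in 8 of 12 cases with a median log2 change of 0.60. The clearest was hoxb8a (ENSDARG00000056027, chromosome 3, 23557361 to 23559933), whose mouse counterpart is used in the spinal cord. Wild type samples a, b and c had 13.4, 13.5 and 14.4 FPKM, and mutants a, b and c had 27.4, 29.8 and 26.65 FPKM. Each mutant was above every wild type sample by a wide margin (log2 change 0.91, SE 0.10, adjusted p 2.48e-05). No other gene of the table overlaps its span. Its copy hoxb8b rose as well, from 5.60 to 6.04 FPKM in wild type to 8.62 to 10.98 FPKM in mutants (log2 change 0.67, SE 0.15, adjusted p 0.00521). The third gene of that number, hoxc8a, did not follow. It had 19.8, 22.5 and 19.3 FPKM in wild type and 23.97, 24 and 18.9 FPKM in mutants, so that mutant c was below all wild type samples. Its log2 change was 0.01 with a 95% interval of -0.22 to 0.24.

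All 4 genes of number 5 rose. In the zebrafish, hoxb5b limits the number of atrial heart cells. It had 18.4, 12.2 and 16.2 FPKM in wild type and 27.4, 23.8 and 24.7 FPKM in mutants (log2 change 0.59, SE 0.14, adjusted p 0.00702). For hoxb5a the samples were closely grouped, at 13.5, 13.4 and 14.2 FPKM against 21.1, 21.4 and 20.2 FPKM (log2 change 0.50, SE 0.09, adjusted p 0.00159). The others, hoxc5a and hoxa5a, had log2 changes of 0.76 and 0.61 (SE 0.14 and 0.15, adjusted p 0.00144 and 0.00888).

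Among genes of number 6, hoxb6b and hoxb6a rose by 0.70 and 0.61 on the log2 scale (SE 0.14 and 0.17, adjusted p 0.00194 and 0.0179). For hoxb6a, wild type b was low at 5.96 FPKM beside 9.51 and 8.68 FPKM in the other two, and the call was lost without it (adjusted p 0.0648) or without mutant b (0.063). By contrast hoxc6a and hoxc6b had log2 changes of 0.11 and 0.07 and did not pass (95% interval for hoxc6a -0.10 to 0.32). The difference between letters was not tested. The only member of number 7, hoxb7a, had the same mean of 6.35 FPKM in both groups. It lies between hoxb6a and hoxb8a, which both rose. Its log2 change was -0.11 with a 95% interval of -0.39 to 0.17.

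Posterior genes, of numbers 9 to 13, rose in 6 of 24 tested cases with a median log2 change of 0.24. The share that rose, 25.0%, is nearer the background of 16.5% than the 69.2% and 66.7% of the anterior and central genes. The count of 6 was 3 without wild type b, without wild type c or without mutant b. The median was 0.16 without wild type b and 0.08 without mutant b. That library gave the highest mutant value for 18 of the 24 genes. Summed FPKM of the posterior genes was 156, 188 and 153 in mutants a, b and c, against 131, 122 and 130 in wild type. For hoxc10a of the plus strand, mutant b had 178 counts while mutants a and c had 97 and 90, and wild type samples had 67 to 81 (log2 change 0.49, SE 0.24, adjusted p 0.143).

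Of the 6 posterior genes that rose, 3 have number 9. The gene hoxb9a (ENSDARG00000056023, chromosome 3, 23546803 to 23551888) had 11.7, 9.27 and 11.03 FPKM in wild type and 18.4, 20.8 and 16.7 FPKM in mutants, with no overlap. Its log2 change was 0.69 (SE 0.12, adjusted p 0.000956). The gene hoxc9a had 9.05, 8.59 and 8.12 FPKM in wild type and 13.7, 17.5 and 13.15 FPKM in mutants (log2 change 0.68, SE 0.15, adjusted p 0.00399). The gene hoxa9b rose by 0.43 on the log2 scale (SE 0.13, adjusted p 0.0219), a call lost when wild type b, wild type c or mutant b was left out (0.0588 to 0.109). Its neighbour in number, hoxd9a, had 9.39 to 13.1 FPKM in wild type and 10.3 to 11.1 FPKM in mutants, with a log2 change of -0.14 (95% interval -0.43 to 0.15).

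The 3 other rises came from genes that pattern limbs or fins. In the mouse, paralogs of number 11 shape the middle segment of the limb. The gene hoxa11a (ENSDARG00000104162, chromosome 19, 20164263 to 20165972) had 3, 6 and 9 counts in wild type and 25, 30 and 25 in mutants. Its log2 change of 1.94 (SE 0.39, adjusted p 0.00237) was the largest of all members and rests on few reads. Every wild type count was below the filter's minimum count of 10. The gene thus passed the filter only through the mutants, where it is high. The copy hoxa11b had 4.36 to 5.50 FPKM in wild type and 6.99 to 7.87 FPKM in mutants, a log2 change of 0.45 (SE 0.15, adjusted p 0.0324). The call of hoxa11b was lost without any sample but wild type a or mutant a (0.0521 to 0.142). Paralogs of number 13 pattern the distal fin. Of these hoxd13a had 18, 12 and 14 counts in wild type and 32, 32 and 36 in mutants (log2 change 0.98, SE 0.30, adjusted p 0.0253). Its call was lost with DESeq2 (adjusted p 0.0749) and when any sample other than wild type a or mutant a was left out (0.0549 to 0.0929).

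Other tail and fin genes had changes near 0 or with wide errors. Of 6 genes with number 13, hoxd13a was the only one to pass, and 4 had negative changes. The lowest was hoxc13a at -0.35 (95% interval -0.78 to 0.08), with 5.26, 6.46 and 6.54 FPKM in wild type and 3.48, 6.47 and 5.45 FPKM in mutants. The gene hoxc12a was among the most abundant members. It stood at 15.9, 18.4 and 19.7 FPKM in wild type and 20.5, 21.25 and 19.7 FPKM in mutants, a log2 change of 0.08 (95% interval -0.15 to 0.31). Of the 5 rows of number 10, 2 of which are hoxc10a, and the 3 genes of number 12, 0 passed in edgeR, DESeq2 or limma. At an unadjusted p below 0.05, 1 gene of number 10 was higher in edgeR and 2 in limma, and 0 and 1 of number 12. The other posterior members did not pass either. Among genes of number 10, hoxb10a came nearest, with 5.71, 5.06 and 4.95 FPKM in wild type and 7.41, 9.96 and 5.78 FPKM in mutants (log2 change 0.45, SE 0.19, adjusted p 0.092). It passed with library totals (0.046) and without mutant c (0.0394). The genes hoxa10b and hoxd10a had log2 changes of 0.25 and 0.03. For number 11, hoxc11a and hoxd11a had 0.14 and 0.13, and for number 12, hoxd12a had 0.22. The remaining genes of number 13 were hoxa13a at 0.11, hoxa13b at -0.002, hoxb13a at -0.03 and hoxc13b at -0.24, each with a 95% interval that spans 0. The hoxa9a row ENSDARG00000100358 had 2 counts in wild type, 1 each in a and b, and 0 in mutants. It was too low to be tested, while the row ENSDARG00000105013 had a log2 change of 0.34 (adjusted p 0.188).

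**Figure D3:**
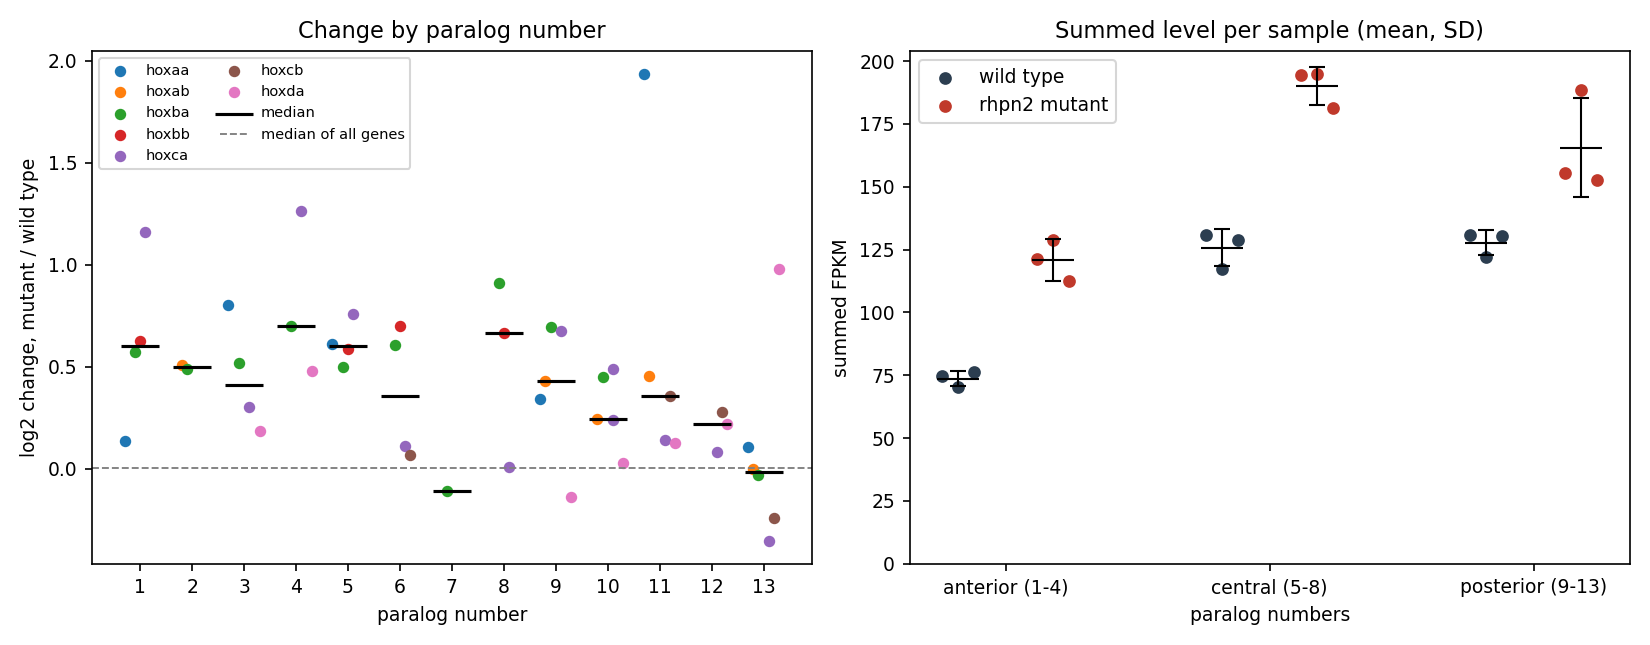
Left, log2 change of mutant over wild type against paralog number for the 49 tested genes, coloured by cluster, with black lines for the median of each number and a dashed line for the median of all genes tested (0.006). Right, summed FPKM of anterior, central and posterior members in each sample with mean and SD (n = 3), where mutants lie above wild type in all 3 sets and mutant b stands above the other mutants in the posterior set.

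Read by paralog number, the medians of numbers 1 to 6, 8 and 9 ranged from 0.36 to 0.70, and those of numbers 10 to 13 from -0.02 to 0.36. Number 7, with hoxb7a alone at -0.11, lay below all of these. Over numbers 1 to 9, 20 of 30 tested genes rose, and over numbers 10 to 13, 3 of 19, a division made after the values were seen. The 20 became 15 without wild type b or mutant b, 18 without wild type c, 19 without mutant a or mutant c and 21 without wild type a. The 3 became 1, hoxa11a with its few reads, without wild type b, wild type c or mutant b. Without mutant c, hoxa11a alone of the 3 kept its call, and hoxb10a gained one. Both shares are set beside the 16.5% of all genes that rose, and the difference between them was not tested. Across the 49 genes, Spearman's rho between paralog number and log2 change was -0.45 and Pearson's r was -0.33. These genes share the same 6 libraries. Within hoxca rho was -0.68 over 12 genes, within hoxba -0.20 over 11, within hoxda 0.32 over 7 and within hoxaa -0.09 over 6. The ratio of summed posterior to summed anterior FPKM was 1.76, 1.74 and 1.71 in the wild type samples and 1.28, 1.46 and 1.36 in the mutants, with no overlap.

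Read by cluster, hoxbb and hoxba held the highest shares of genes that rose, with 4 of 4 and 7 of 11. Then came hoxab with 3 of 5, hoxaa with 3 of 6, hoxca with 4 of 12 and hoxda with 2 of 7. Over all genes tested, 16.5% rose. The shares of hoxca (33.3%) and hoxda (28.6%) lie nearest above it, and each cluster holds few genes. Differences between clusters were not tested. In hoxab 0 rose without wild type b, wild type c or mutant b. In hoxda 0 rose without wild type b or mutant b, and 1 without wild type c or mutant c and with DESeq2. In hoxcb 0 of 4 genes rose in edgeR, DESeq2 or limma. At an unadjusted p below 0.05, 0 were higher in edgeR and 2 in limma. Its smallest p was that of hoxc11b, with 1.98 to 2.48 FPKM in wild type and 2.89 to 3.24 FPKM in mutants (log2 change 0.36, 95% interval -0.03 to 0.74, adjusted p 0.187). Its most abundant gene, hoxc12b, had a log2 change of 0.28 (adjusted p 0.348). The clusters differ in which numbers they hold. In hoxcb 3 of 4 genes are posterior, and in hoxda 5 of 7, while hoxbb holds none. Median log2 changes were 0.65 in hoxbb, 0.52 in hoxba, 0.48 in hoxaa, 0.43 in hoxab, 0.27 in hoxca, 0.19 in hoxda and 0.17 in hoxcb, and that of hoxda was 0.019 without mutant b.

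Many members have an a and a b copy. Of 11 pairs of a and b copies in which both were tested, both rose in 4, 1 copy rose in 2 and neither passed in 5. The log2 changes of the copies differed by 0.04 to 0.25 in all pairs but 1, and no test of these differences was run. The exception was hoxa11, where the a copy with its few reads changed by 1.94 and the b copy by 0.45.

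The rank of the genes by level shifted with these changes. In wild type the highest means were 20.5 ± 1.72 FPKM for hoxc8a, 18 ± 1.95 for hoxc12a, 15.6 ± 3.14 for hoxb5b, 13.8 ± 0.571 for hoxb8a and 13.7 ± 0.441 for hoxb5a (SD, n = 3). The last 3 of these lie within their spread of each other. In mutants hoxb8a led with 27.9 ± 1.62 FPKM, followed by hoxb5b with 25.3 ± 1.86 and hoxc8a with 22.3 ± 2.95 (SD, n = 3). A mean above 10 FPKM was reached by 10 members in wild type and by 23 in mutants.

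Many members lie so close together that their deposited spans overlap, and the sources used here do not say whether reads were counted by strand. Of the 23 genes that rose, 17 overlap another gene of the table and 6 do not, namely hoxb1b, hoxb5b, hoxb6b, hoxb8a, hoxb9a and hoxd13a. The span of hoxb3a covers hoxb4a, hoxb5a and hoxb6a, and that of hoxc3a covers several hoxca genes, so their reads may be shared. The same holds for hoxa3a with hoxa5a and for hoxd3a with hoxd4a. The hoxc10a row on the minus strand (ENSDARG00000096956), with 7 to 13 counts per sample, lies across the row on the plus strand, and reads of the pair cannot be told apart without strand. The minus strand row is counted as a gene that did not pass in the totals of hoxca, of the posterior set and of numbers 10 to 13. Among the 16 members that overlap no gene, 6 rose and the median was 0.18. Of these 16, 11 are posterior genes, 4 central and 1 anterior. In the central set 3 of the 4 rose and in the posterior set 2 of the 11.

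Hox proteins bind DNA together with cofactors of the Pbx, Meis and Pknox families. Of 14 such genes, 9 rose and 0 fell in edgeR, with a median log2 change of 0.41. The share that rose was 64.3%, beside 16.5% of all genes. The list was chosen with earlier results of these data known, and its difference from all genes was not tested. The genes meis1a and pknox1.2 had negative changes, of -0.17 and -0.12, and did not pass. At an unadjusted p below 0.05, 11 were higher and 0 lower, and DESeq2 and limma called 10 and 11 higher and 0 lower. The gene meis3, which acts with Hox proteins in the hindbrain, had 8.65, 8.94 and 10.4 FPKM in wild type and 14.9, 15.99 and 15.03 FPKM in mutants (log2 change 0.61, SE 0.10, adjusted p 0.000607). The genes pknox2, pbx1a and meis2b rose by 0.57, 0.49 and 0.44 on the log2 scale (SE 0.10 each). The count of 9 was 6 without mutant a or without mutant b.

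Another list holds genes that act upstream of Hox genes, in retinoic acid signalling, as Cdx factors or in hindbrain segmentation, and also gdf11. Of its 27 tested genes, 1 rose and 5 fell, with a median of 0.01. This is 22.2% called, below the 33.2% of all genes. The rise was gdf11, a secreted factor that promotes the switch to posterior Hox genes in the mouse. It had 0.61, 0.71 and 0.81 FPKM in wild type and 2.36, 2.73 and 2.27 FPKM in mutants (log2 change 1.68, SE 0.22, adjusted p 0.000117). It overlaps BX950873.1 on the opposite strand. The falls included cdx1b, a Cdx factor also used in the intestine, at -1.15 (SE 0.18) and the retinoic acid binding protein gene crabp2b at -0.97 (SE 0.12). The receptor genes rxrbb and raraa, at -0.41 and -0.34, were not called with library totals (adjusted p 0.097 and 0.0858). Nor were they called with limma (0.0968 to 0.115) or without mutant b or mutant c (0.0537 to 0.0929). The call of raraa was also lost without mutant a (0.0943), and that of rxrbb without wild type c (0.0626). With library totals 3 genes of this list rose and 2 fell. The 5 falls were 3 without mutant a and 2 without mutant b or without mutant c. The fall of rxrgb, at -0.47, was not called with library totals (adjusted p 0.0676) or with limma (0.0737 and 0.0762). Nor was it called without mutant a, mutant b or mutant c (0.0524 to 0.1). Without wild type a, rxrgb did not pass either (adjusted p 0.0777), while rarga, rxraa and hnf1bb also fell (0.0217, 0.0311 and 0.0273). The gene aldh1a2, which makes retinoic acid, had a log2 change of 0.16 (adjusted p 0.218).

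Polycomb proteins keep Hox genes silent and trithorax proteins keep them active. Of 29 tested genes of both kinds, 6 rose and 2 fell, with a median of 0.04. The share called, 27.6%, is near the 33.2% of all genes. With library totals 9 rose and 2 fell. Without wild type a, 7 rose and 5 fell. The Polycomb genes phc1 and phc2b rose by 0.73 and 0.53 (SE 0.10 each) and jarid2b by 1.045 (SE 0.21). The histone demethylase gene kdm6bb, whose product removes the Polycomb mark, rose by 0.90 (SE 0.14). The falls were cbx7a at -0.95 and cbx8a at -0.57. Of 12 tested homeobox genes related or linked to Hox clusters, 5 rose and 1 fell, and without wild type b or mutant a 3 rose. With every sample kept, 41.7% of this list rose, beside 16.5% of all genes. The list is short, and its difference from all genes was not tested. In order of p, the rises were evx2, which lies at the end of the hoxd cluster, at 0.91 (SE 0.19), meox1 at 0.61 (SE 0.13), gbx2 at 0.45 (SE 0.12), gbx1 at 0.62 (SE 0.20) and gsx1 at 0.62 (SE 0.21). The call of gbx2 was lost without wild type c (adjusted p 0.0561) or mutant c (0.0779), that of gbx1 without wild type b or mutant a (0.107 and 0.148), and that of gsx1 without any 1 sample other than wild type c (0.0527 to 0.143). The fall was pdx1, a gene of pancreas and gut (log2 change -0.89, SE 0.25), which did not pass without mutant a or without mutant c (adjusted p 0.0666 and 0.0646). The gene evx1 stands on 2 rows. The one whose span covers the hoxaa cluster on the other strand, ENSDARG00000099365, is listed at 0 in every sample, and the other had a log2 change of 0.30 (adjusted p 0.554).

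Of 22 neuronal genes of the spinal cord and hindbrain, 11 rose and 0 fell in edgeR, beside 16.5% and 16.7% of all genes. This list too was chosen with earlier results known, and its difference from all genes was not tested. The median log2 change of the 22 genes was 0.42. At an unadjusted p below 0.05, 12 were higher and 0 lower, and DESeq2 and limma called 11 and 12 higher and 0 lower. Their summed FPKM was 220 to 275 in wild type and 348 to 423 in mutants. The pan-neuronal gene elavl3 had 36.3, 49.2 and 60.1 FPKM in wild type and 105, 88.7 and 84.8 FPKM in mutants (log2 change 0.83, SE 0.14, adjusted p 0.0006). The interneuron genes lhx1a and lhx5 rose by 1.08 and 0.98 (SE 0.14 each), phox2bb of hindbrain motor neurons by 0.81 (SE 0.12) and olig2 by 0.81 (SE 0.13). The other 11 did not pass. Among them the cholinergic genes chata and slc18a3a both had log2 changes of 0.10. The motor neuron genes lhx3, isl2b, isl1 and mnx1 had 0.03, -0.27, 0.33 and 0.34, while isl2a of the same kind rose by 0.60 (SE 0.10). The inhibitory neuron genes slc32a1 and gad1b had 0.01 and -0.21, while slc6a5 of that kind rose by 0.59 (SE 0.18). The call of slc6a5 was lost without wild type b or without mutant b (adjusted p 0.0727 and 0.107). Several of these genes are also used in the forebrain or the retina, where Hox genes are not used. The part of these cells in the Hox result was not tested.

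Lists for other tissues that use Hox genes had medians between -0.02 and 0.10. Of 17 pectoral fin genes 3 rose and 4 fell, with a median of -0.02 and a summed FPKM of 884 to 905 in wild type and 685 to 805 in mutants. Most of that sum came from the actinodin genes and1, and2 and and3. Their means were 246, 323 and 178 FPKM in wild type and 209, 217 and 163 FPKM in mutants. The sum therefore says little of the other fin genes. The share that rose was 17.6%, near the 16.5% of all genes, and the share called was 41.2%, beside 33.2%. The actinodin gene and2, which forms the fin fold fibres, and alx4a both fell by 0.68 on the log2 scale (SE 0.11 and 0.10), while hand2 and sall4 rose by 0.67 and 0.72 (SE 0.11 and 0.14). The fall of and1, at -0.34, did not pass with library totals (adjusted p 0.0836) or limma (0.0837 and 0.0842). Nor did it pass without wild type b, wild type c, mutant a or mutant b (0.0651 to 0.148). Of 10 tested genes of the tail bud and axial mesoderm 0 rose and 1, bmp4, fell by 0.43 on the log2 scale (SE 0.11), though not with limma (adjusted p 0.0509 and 0.0524) or without mutant a (0.0521). At an unadjusted p below 0.05, 1 was higher, and 1 rose with library totals or without wild type b. Of all genes, 16.5% rose and 16.7% fell. A list of 10 genes is too short to set 0 rises apart from that share, and the difference was not tested. The list's summed FPKM was 37.7 to 41.5 in wild type and 38.7 to 41.5 in mutants. Most of it came from ntd5 and bmp4, with means of 17.5 and 12.8 FPKM in wild type and 19.3 and 10.3 FPKM in mutants. The sum therefore says little of the rest of the list. The other 10 rows of that list, several of them of the gene wnt8a, were too low to test, and 1 of the wnt8a rows had no count. Of 17 genes of the pharyngeal arch mesenchyme 4 rose and 0 fell in edgeR, with 1 lower at an unadjusted p below 0.05, and DESeq2 called 3 higher and 0 lower. Without wild type c or mutant a, 1 fell. The share that rose was 23.5%, beside 16.5% of all genes. The list's summed FPKM was 145 to 153.5 in wild type and 187 to 206 in mutants, higher in each mutant. The rises were pou3f3b at 1.01 (SE 0.10), hand2, pou3f3a at 0.61 (SE 0.13) and dlx1a at 0.45 (SE 0.16), which did not pass with DESeq2 (adjusted p 0.0671) or without any 1 sample other than wild type a. The genes pou3f3a and pou3f3b are also neural, and hand2 stands in the fin list too. The part of fin, tail and arch cells in the Hox result was not tested.

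**Figure D4:**
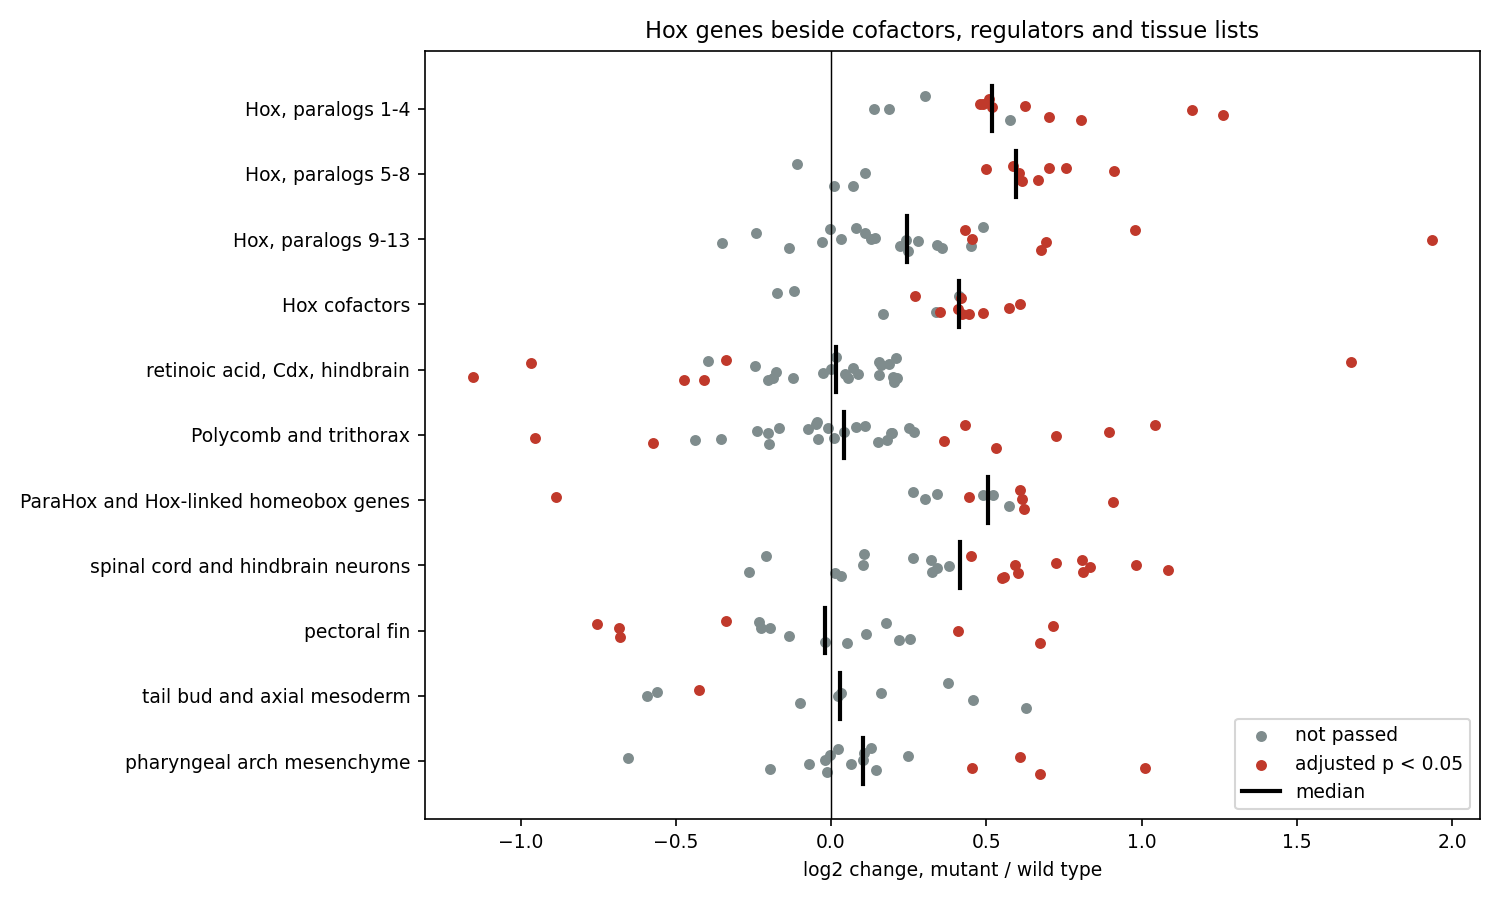
Log2 change of mutant over wild type (horizontal axis) for the tested members of each list (rows), with red points for genes that passed at an adjusted p below 0.05, grey points for the others and a black line for the median. Hox genes of numbers 1 to 8, their cofactors, related homeobox genes and spinal cord and hindbrain neurons have medians between 0.41 and 0.60, while the Hox genes of numbers 9 to 13 have 0.24 and the remaining lists -0.02 to 0.10.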

How the data were processed

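RNA-seq of whole embryos was analysed from 1 table with counts and FPKM per gene. The authors deposited raw counts as whole numbers, per the file headers. Their deposited FPKM values scale each count by exonic gene size and library total, which recomputation matched (ratio 1). The submitters' processing notes name Salmon 1.9.0, STAR 2.7.10a, fastp 0.23.2 and bcl2fastq 2.20.0.422 without their roles. Build, annotation and strand setting were not given in the sources used here. Genome positions were copied from the table.

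Genes that passed filterByExpr (minimum count 10, total 15) were scaled by TMM. They were tested with edgeR 4.0.16 (quasi-likelihood, R 4.3.3) for the effect of group. P-values were adjusted over all 20032 tested genes by Benjamini-Hochberg, and 0.05 was the threshold. The SE is the log2 change over the square root of F, and 95% intervals are normal ones from it. Alternatives were DESeq2 1.42.0, limma 3.58.1 on log2 FPKM, other scalings and filters, the letters as a block, and leaving out 1 sample.

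Members and lists were chosen with earlier results of these data known, and 155 of 158 list symbols were found. Named by rule were rhpn2, each member called, the most abundant member of each cluster, the member with the smallest p in a cluster without calls, and up to 4 called genes with the smallest p per list. Other names and the genes plotted were chosen after their values were seen. A count of 3 equals 0.176 to 0.201 CPM in a library. Libraries of 1 group differed beyond counting noise (chi-square over degrees of freedom 4.21 to 14.5). No sequence was analysed here.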

Additional observations from a re-analysis of the deposited data

How the results depend on the processing

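The 23 rises and 0 falls among Hox genes became 19 to 25 rises and 0 falls with other scalings, filters, DESeq2, limma and the replicate block (19 rises), and 16 to 24 rises and 0 falls with 1 sample left out. Of the 23 genes, 15 kept their call in all 14 refits, hoxa11a kept it in 13 and was too low for the filter of a mean count of 20, 3 lost it only when a sample was left out, and 0 changed direction with a call. Over members that overlap no other gene, 6 rose with a median of 0.18, with 1 anterior, 3 central and 2 posterior rises. The anterior median of 0.62 is the value of 1 gene, hoxb1b. Fewer members were counted in each set. Anterior and central medians were 0.63 and 0.71 with library totals and 0.62 and 0.72 with limma on log2(FPKM + 0.1); library totals move all genes upward. With the replicate block, 3 posterior and 0 hoxab genes rose, with hoxa2b (adjusted p 0.0742), hoxa9b (0.0538), hoxa11b (0.0644) and hoxd13a (0.0512) losing their edgeR calls; same-lettered samples correlated at -0.163 to -0.0486 in their deviations, so the letters were not taken as pairs. With 1 sample left out, anterior rises ranged from 6 to 10, central rises from 7 to 8 and posterior rises from 3 to 6. Medians then ranged from 0.47 to 0.64 (anterior), 0.45 to 0.71 (central) and 0.0803 to 0.32 (posterior). Genes with under 50 counts per sample, such as hoxa11a, hoxb1a and hoxd13a, have wide errors at this depth. The causes of these shifts were not tested.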
